A study of Homo sapiens with 7 samples.

Results

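Wide H3K4me2 peaks that carried no peak of H3K27ac, H3K36me3 or H3K27me3 were examined in T-47D, a luminal, estrogen receptor-positive human breast cancer cell line. The 922 regions are the H3K4me2 peaks of 2000 bp or more on chromosomes 1 to 22 and X that shared no base with a peak of those 3 marks. They were 922 of 64561 H3K4me2 peaks, and 922 of the 2956 H3K4me2 peaks of 2000 bp or more. The series holds chromatin immunoprecipitation with sequencing (ChIP-seq) for H2A.Z, H3K27ac, H3K27me3, H3K36me3, H3K4me2 and H3K9me3, plus an input library that was not analysed here. The labels name no treatment, and cells were kept in DMEM with 10% serum until dishes were 70 to 80% confluent, and each mark had 1 library. The deposited lists give each peak's chromosome, start, end and name, with no height or p-value, so a region could be described by its width and its position (hg19, 1-based) alone. The regions were thus selected on the width of the H3K4me2 peak and on the positions of the H3K27ac, H3K36me3 and H3K27me3 peaks. With 1 library per mark no difference below could be tested over samples, and all intervals cover counting error in these libraries with peaks taken as independent.

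As background, H3K4me2 is laid down by methyltransferases of the MLL and SET1 family and marks promoters and enhancers, whether or not they are active. H3K27ac is added by the acetyltransferases p300 and CBP and is found at active promoters and enhancers, and regions with H3K4 methylation but no H3K27ac are often described as primed or poised. H3K36me3 follows transcription through gene bodies, and H3K27me3 marks chromatin repressed by Polycomb. H3K9me3 is known from heterochromatin and H2A.Z from promoters and enhancers, but the lists under these 2 labels overlapped the active marks in directions opposite to that background in the series as a whole. They are therefore named by their labels throughout, as labelled H3K9me3 and labelled H2A.Z.

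Most wide H3K4me2 peaks had H3K27ac, and the 922 regions were those that had none of the 3 marks. Of the 2956 wide peaks, 1696 (57.4%) overlapped H3K27ac and neither of the other marks, and these acetylated wide peaks served as the comparison. A further 221 held H3K27ac with H3K36me3, 102 held H3K36me3 alone, 10 held H3K27me3 alone and 5 held H3K27ac with H3K27me3. The 922 regions made up 31.2% of the wide peaks (95% Wilson interval 29.5 to 32.9), whereas 70.8% of all H3K4me2 peaks carried none of the 3 marks. The rule fixed both shares, so they describe the choice of regions. By width the share without the 3 marks went from 81.7% of H3K4me2 peaks of at most 501 bp to 43.5% at 1500 to 1999 bp, 35.4% at 2000 to 2499 bp and 20.6% at 4000 bp or more.

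The 922 regions ranged from 2001 to 12205 bp, with a median of 2479 bp and quartiles of 2199 and 2994.5 bp, and they covered 2.55 Mb. The acetylated wide peaks were somewhat wider, with a median of 2596 bp and a widest peak of 10873 bp. Of the 922 regions 27 were 5 kb or wider, against 88 of the 1696 acetylated peaks. The share with labelled H3K9me3 is therefore compared at equal width below, and the distances to H3K36me3 and H3K27me3 are also given by width. Flank coverage, neighbouring peaks and covered sequence were not matched by width. Among peaks without the 3 marks, the 2000 bp limit did not fall at a clear break in the data. There were 130 regions of 2000 to 2099 bp just inside it and 164 H3K4me2 peaks of 1900 to 1999 bp without the 3 marks just outside it. The median distance to H3K27ac was 15697 bp in the former and 12316 bp in the latter, and labelled H3K9me3 lay on 18.5% and 20.7% of them. Among peaks with H3K27ac and neither other mark, it lay on 55 of 186 (29.6%) just inside the limit and on 79 of 201 (39.3%) just outside it.

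The widest of the 922 regions lay on chromosome 16 (88983834 to 88996038), spanned 12.2 kb, and had an H3K36me3 peak 985 bp and an H3K27ac peak 1395 bp from its edges. Another of the 10 widest lay near it on the same chromosome (88826666 to 88834081, 7416 bp), 4.32 kb from H3K27ac. On chromosome 17, a region of 8332 bp (55975320 to 55983651) was 20.1 kb from H3K27ac and 10.9 kb from H3K36me3. A second on chromosome 17 (37829788 to 37835548, 5761 bp) had H3K36me3 at 1771 bp and H3K27ac at 1859 bp. One more there (76347437 to 76353121, 5685 bp) had H3K27ac at 2445 bp. In 4 of these 5 regions H3K27ac lay beside the broad H3K4me2 peak, within 5 kb of its edge.

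The region of 8195 bp on chromosome 20 (37227391 to 37235585) and that of 6139 bp on chromosome 3 (129341307 to 129347445) were the members of the 10 widest with a labelled H3K9me3 peak, which covered 501 and 948 bp of them. The one on chromosome 3 had H3K27ac at 640 bp. A region of 7361 bp on chromosome 10 (82214718 to 82222078) had H3K27ac at 1890 bp. One of 6255 bp on chromosome 11 (82706927 to 82713181) had it at 1051 bp, and one of 5934 bp on chromosome 5 (149991910 to 149997843) at 22176 bp. In all, H3K27ac lay within 5 kb of 7 of the 10 widest regions, and H3K27me3 was 50.3 kb or more from each of them. For comparison, the widest acetylated peak, on chromosome 2 (20664603 to 20675475), was covered by H3K27ac over 100% of its length, the next, on chromosome 17 (47984324 to 47994389), over 4.98%, and the next, on chromosome 3 (174575278 to 174583639), over 91.5%.

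Although none of the 922 regions touched H3K27ac, many lay next to it. The distance from the region's edge to the nearest H3K27ac peak had a median of 8.17 kb (exact binomial interval of the median 6.89 to 9.58), quartiles of 1.86 and 32.5 kb, and a range from 4 bp to 742 kb. In the 44774 H3K4me2 peaks under 2000 bp that also lacked the 3 marks, the median was 21.96 kb (21.5 to 22.5). These levels depend on which H3K27ac peaks count: against peaks of the other lists wider than their list's median, the medians were 19.9 kb and 39.6 kb. With wide peaks taken from 3000 bp they were 5.21 kb and 21.7 kb. The regions were nearer than the narrower peaks in 8 of 8 alternatives, which reuse the same lists and edge distances and are not independent. H3K27ac lay within 5 kb of 374 of the 922 regions, or 40.6% (Wilson interval 37.4 to 43.8), against 25.8% (25.4 to 26.2) of the narrower peaks and 26.1% of all H3K4me2 peaks without the 3 marks. H3K27ac was within 5 kb on both sides of 97 regions (10.5%) and on one side of 277 (30%). Of the narrower peaks, 4.42% had it on both sides and 21.4% on one side.

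Nearness to H3K27ac followed the width of the H3K4me2 peak. Among peaks without the 3 marks, the median distance went from 23.7 kb at no more than 501 bp through 18.4 kb at 1000 to 1499 bp and 10.1 kb at 2000 to 2499 bp to 2.44 kb at 4000 bp or more. Of the 71 regions of 4000 bp or more, 43 had H3K27ac within 5 kb (60.6%, Wilson interval 48.9 to 71.1). A wider peak reaches closer to its neighbours by its own length. Measured from the centre of the H3K4me2 peak, the median was 9.70 kb in the 922 regions and 22.3 kb in the narrower peaks, and 5.29 kb at 4000 bp or more, so the order was the same. H3K27ac lay within 5 kb of the centre in 34.9% of the 922 regions and 24.9% of the narrower peaks, a smaller gap than from the edges. The neighbouring H3K27ac peaks had a median width of 629.5 bp for the 374 regions, against 670 bp for the narrower peaks and 653 bp over the whole H3K27ac list. Their upper quartiles were 1075.5, 1348 and 1297 bp, lowest for the 374 regions.

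The closest and the farthest regions show the span of this group. On chromosome 12 a region (69186245 to 69188596) ended 4 bp from an H3K27ac peak, another on chromosome 17 (4236270 to 4238338) lay 9 bp away, and one more on chromosome 12 (76114465 to 76117683) lay 16 bp away. These are regions without H3K27ac by the overlap rule alone. At the other end, the region on chromosome 3 at 191046415 to 191049118 was 742 kb from H3K27ac, but 28.2 kb from H3K36me3 and 6.41 kb from H3K27me3. On chromosome 12, the regions at 24101917 to 24104027 and at 39298749 to 39301369 were 713 and 535 kb from H3K27ac.

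**Figure D1:**
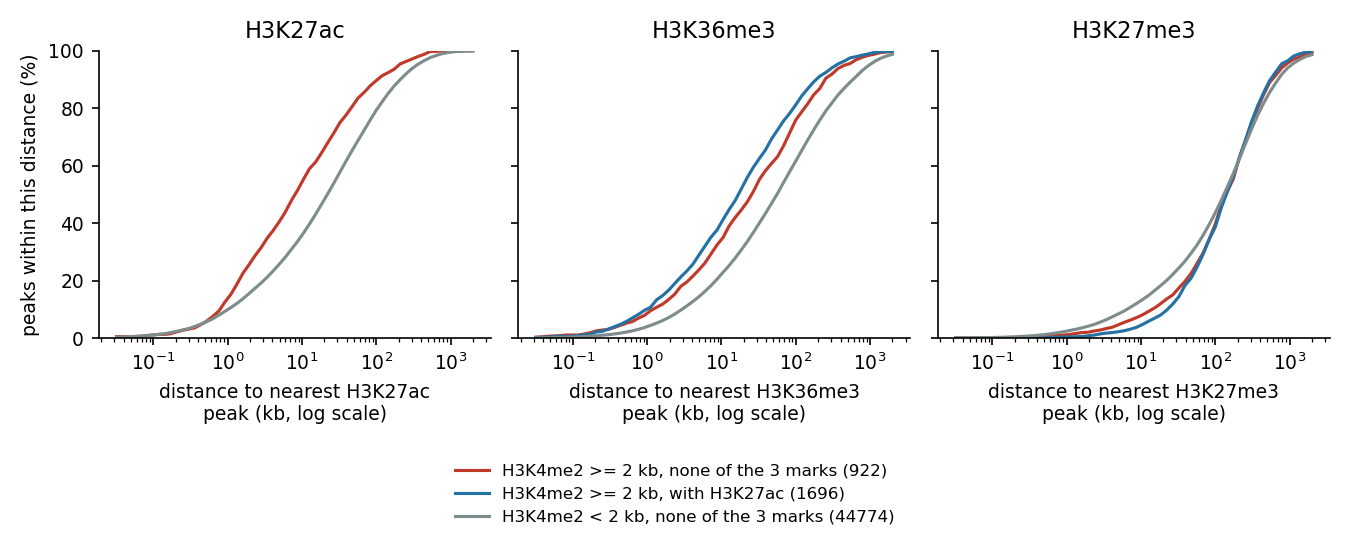
Share of H3K4me2 peaks (y axis, %) whose nearest H3K27ac, H3K36me3 or H3K27me3 peak lies within the distance on the x axis (kb, log scale), for the 922 wide regions without the 3 marks, the 1696 wide peaks with H3K27ac (not drawn for H3K27ac, where their distance is 0) and 44774 narrower peaks without the 3 marks. At 5 kb from H3K27ac the curve of the 922 regions stands at 40.6% and that of the narrower peaks at 25.8%, and for H3K27me3 the curves stand at 4.66% for the 922 regions, 2.30% for the acetylated wide peaks and 8.47% for the narrower peaks.

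H3K36me3, the mark of transcribed gene bodies, was also nearer to the 922 regions than to narrower peaks, but not as near as to acetylated wide peaks. The median distance was 25.3 kb (interval 20.9 to 29.9) for the 922 regions, 17.2 kb (15.0 to 19.3) for the acetylated wide peaks and 55.9 kb (54.5 to 57.2) for the narrower peaks, and these intervals do not overlap. By width, the 922 regions and the acetylated peaks had medians of 28.8 and 14.4 kb at 2000 to 2499 bp, 19.5 and 17.3 kb at 2500 to 2999 bp, 26.6 and 21.1 kb at 3000 to 3999 bp, and 23.3 and 18.6 kb at 4000 bp or more. The acetylated peaks were nearer in all 4 classes, by the most in the narrowest. Within 5 kb, H3K36me3 was found at 219 regions (23.8%), at 29.0% of acetylated wide peaks and at 14.5% of narrower peaks, beside 14.6% of all H3K4me2 peaks without the 3 marks. Counted from the peak centres, the shares of these 3 sets were 20.2%, 23.8% and 13.8%. Of the 922 regions, 108 had both H3K27ac and H3K36me3 within 5 kb, and in 79 of these the 2 marks lay on opposite sides. Both marks were thus near 11.7% of the 922 regions and 6.94% of the narrower peaks, and on opposite sides of 8.57% and 4.98%. Each mark alone was also more often near the 922 regions, and whether the pair is more frequent than the single marks give was not tested.

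H3K27me3, the Polycomb mark, was far from most of these regions. Its median distance was 137 kb (interval 121 to 157) for the 922 regions, 140 kb (129 to 153) for the acetylated wide peaks and 130 kb (128 to 133) for the narrower peaks, and all 3 intervals overlap. By width, the medians for the 922 regions and the acetylated peaks were 122 and 143 kb at 2000 to 2499 bp, 128 and 139 kb at 2500 to 2999 bp, 169.9 and 149.9 kb at 3000 to 3999 bp, and 209.7 and 125.7 kb at 4000 bp or more, with no one direction. At short range the groups were apart. H3K27me3 lay within 5 kb of 43 regions (4.66%, Wilson interval 3.48 to 6.22), of 2.30% of acetylated wide peaks (1.69 to 3.13) and of 8.47% of narrower peaks (8.22 to 8.73), beside 8.39% of all H3K4me2 peaks without the 3 marks. Of those 43 regions, 2 also had H3K27ac within 5 kb. The same was true of 147 of the 3793 narrower peaks with H3K27me3 within 5 kb, so this scarcity was not particular to the 922 regions.

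The surroundings up to 50 kb were measured as the share of sequence covered by each list. From 1 to 2 kb outside the edges H3K27ac covered 6.29% around the 922 regions, 11.5% around acetylated wide peaks and 3.82% around narrower peaks. From 20 to 50 kb outside it covered 4.72% and 4.76% around the 2 wide sets, and 2.68% around the narrower peaks. The rule separates the 2 wide sets by H3K27ac, whose peaks can run on from inside an acetylated peak for more than 1 kb, so their difference in H3K27ac near the edge is a description of that choice. H3K36me3 covered 7.23%, 8.74% and 5.51% at 20 to 50 kb, and H3K27me3 covered 0.899%, 0.715% and 1.37%. Within the first 1 kb H3K27ac covered 2.83% around the 922 regions and 18.1% around acetylated wide peaks.

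**Figure D2:**
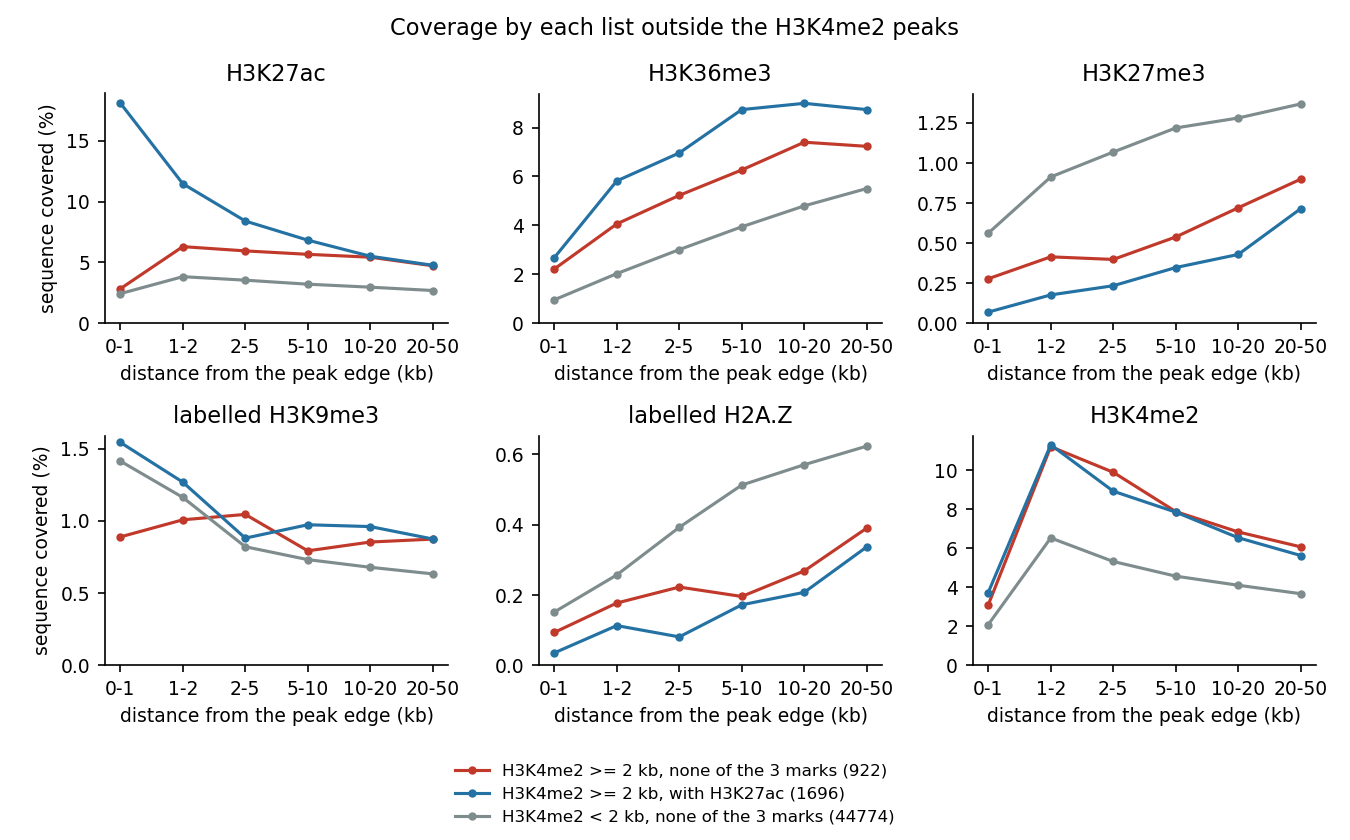
Share of sequence covered by each of the 6 lists (y axis, %, each panel with its own scale from 0) in 6 zones outside the edges of H3K4me2 peaks (x axis, kb), both sides together, for the same 3 sets of peaks. H3K27ac is at 6.29% from 1 to 2 kb outside the 922 regions and reaches nearly the same level as around acetylated wide peaks from 10 kb on.

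Other H3K4me2 peaks surrounded the 922 regions about as often as they surrounded acetylated wide peaks. Within 10 kb there was a median of 1 other H3K4me2 peak (mean 1.74) for the 922 regions, 2 (mean 1.83) for acetylated wide peaks and 1 (mean 1.18) for narrower peaks. None was found within 10 kb of 24.4%, 20.8% and 39.8% of them. Another wide H3K4me2 peak of any kind lay within 50 kb of 40.0% of the 922 regions and of 38.1% of acetylated wide peaks. Another of the 922 regions lay within 50 kb of 163 (17.7%).

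The list labelled H3K9me3 was not used to choose the regions. It met 252 of the 922, or 27.3% (Wilson interval 24.6 to 30.3), against 11.2% of all H3K4me2 peaks and 7.04% (6.81 to 7.28) of narrower peaks without the 3 marks. Among acetylated wide peaks it met 600 of 1696, or 35.4% (33.1 to 37.7). With the acetylated peaks weighted to the widths of the 922 regions, their share was 35.1%, and the 922 regions were lower by 7.81 percentage points (difference -7.81, counting interval -11.5 to -4.12).

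A longer peak meets another list more often by its length alone, and the share with labelled H3K9me3 was higher in wider H3K4me2 peaks, except in the widest of the 922 regions. Among peaks without the 3 marks, the share with labelled H3K9me3 was 3.97% at no more than 501 bp, 9.20% at 502 to 999 bp, 15.4% at 1000 to 1499 bp and 20.3% at 1500 to 1999 bp. In the 922 regions it continued at 24.2% at 2000 to 2499 bp, 30.6% at 2500 to 2999 bp, 32.7% at 3000 to 3999 bp and 26.8% at 4000 bp or more. The acetylated peaks of the same 4 classes had 33.8, 36.01, 37.1 and 37.3%. The 922 regions were lower in all 4 classes. The counting interval of the difference stayed below 0 in the narrowest of them (-9.62 points, -14.6 to -4.40) and included 0 in the other 3, for example at 4000 bp or more (-10.5 points, -21.7 to 2.46). The rise was also present per base. Among peaks without the 3 marks, labelled H3K9me3 covered 2.88% of the sequence at no more than 501 bp and 5.83% at 502 to 999 bp. It covered 7.84% at 1000 to 1499 bp and 8.80% at 1500 to 1999 bp. From 2000 bp the 922 regions were again lower per base than acetylated peaks in all 4 classes, but of these 4 the widest had the lowest coverage in both sets. Labelled H3K9me3 covered 10.1% of the sequence of the 922 regions at 2000 to 2499 bp, 10.8% at 2500 to 2999 bp, 8.80% at 3000 to 3999 bp and 4.38% at 4000 bp or more, and 14.3, 14.2, 10.2 and 7.40% of acetylated peaks in the same classes.

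**Figure D3:**
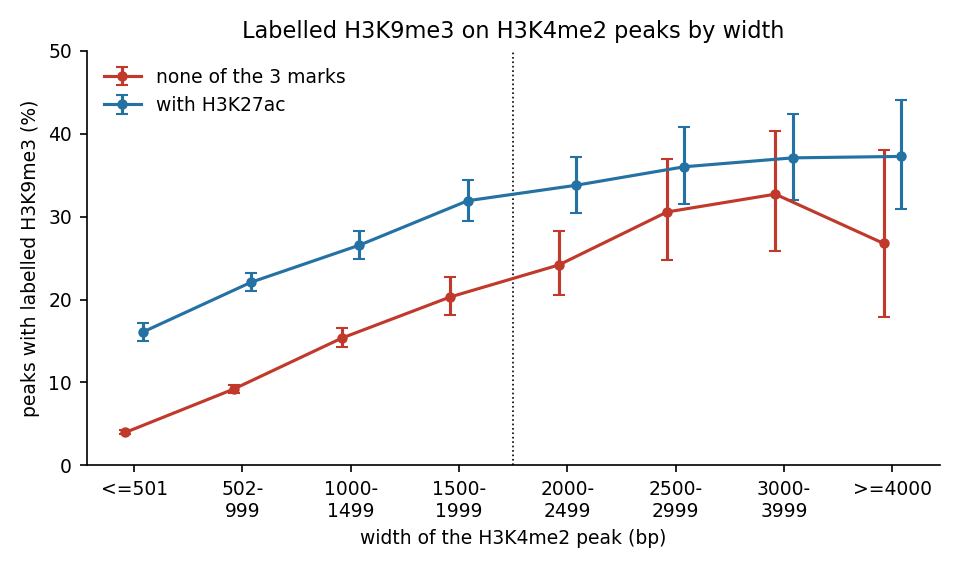
Share of H3K4me2 peaks with a peak of the list labelled H3K9me3 (y axis, %, points with 95% Wilson intervals) by width of the H3K4me2 peak (x axis, bp), for peaks without H3K27ac, H3K36me3 and H3K27me3 and for peaks with H3K27ac and neither of the others. The dotted line marks 2000 bp, and to its right the 922 regions go from 24.2% to 32.7% and 26.8%, below the acetylated peaks in each class.

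Inside acetylated wide peaks, labelled H3K9me3 was denser where H3K27ac was. H3K27ac covered a median of 46.9% of these peaks (quartiles 26.2 and 75.3%). Labelled H3K9me3 covered 15.8% of the sequence under H3K27ac and 7.79% of the remaining sequence of the same peaks. It covered 9.19% of the 922 regions, a value nearer to that of the part without H3K27ac. This sets whole regions beside a part of other peaks, and neither width nor position within the peak was matched. Whether the likeness goes beyond width and position was not tested. Of the 642 labelled H3K9me3 peaks on acetylated wide peaks, 545 (84.9%) also touched H3K27ac. These wide peaks were selected for H3K27ac, so this share follows in part from that choice. The same share over the whole labelled H3K9me3 list is not given here.

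The labelled H3K9me3 peaks themselves had similar widths and positions in both sets. They had a median width of 760.5 bp on the 922 regions and 769.5 bp on acetylated wide peaks, and 32.3% and 31.9% of them had the commonest width of the list, 501 bp. Their centre lay in the inner 50% of the H3K4me2 peak in 60.2% and 63.6% of overlaps, and 80.8% and 79.9% lay wholly inside it. A region with labelled H3K9me3 usually had 1 such peak (238 of 252), and 14 had 2. The covered length had a median of 791 bp, with quartiles of 501 and 1226 bp, which was a median of 27.7% of the region. The 266 labelled H3K9me3 peaks on the 922 regions were 1.3% of their list. The widest regions with one were those on chromosomes 20 and 3 given above, and one on chromosome 16 (10718622 to 10723893, 5272 bp), where it covered 858 bp.

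Labelled H3K9me3 showed no difference with the distance of the 922 regions from H3K27ac that could be told from counting error, in classes of 96 to 246 regions. It was found on 28.1% (Wilson interval 21.1 to 36.5) of the 128 regions within 1 kb of H3K27ac, on 25.2% (20.2 to 31.0) from 1 to 5 kb and on 24.9% (19.7 to 30.9) from 5 to 20 kb. From 20 to 100 kb it was on 30.0% (24.4 to 36.4), and on 31.2% (22.9 to 41.1) of the 96 regions beyond 100 kb. All 5 intervals overlap. The region on chromosome 3 that lay farthest from H3K27ac held 1394 bp of labelled H3K9me3, or 51.6% of its length.

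The list labelled H2A.Z met none of the 922 regions. The count of 0 of 922 allows a share of up to 0.325%, and 0.246% of all H3K4me2 peaks overlapped that list, so a share as low as that of all H3K4me2 peaks would not be detectable with this number of regions. Acetylated wide peaks had 1 of 1696 (0.0590%) and narrower peaks without the 3 marks had 116 of 44774 (0.259%, Wilson interval 0.216 to 0.311). The nearest labelled H2A.Z peak was at a median of 163 kb from the 922 regions and 153 kb from acetylated wide peaks.

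Along the chromosomes the 922 regions followed the wide H3K4me2 peaks. Their share of the wide peaks was 22.4% on chromosome 19 (15 of 67), 23.1% on chromosome 13 (6 of 26) and 26.8% on chromosome 20 (34 of 127), and at the upper end 37.4% on chromosome 14 (46 of 123), 38.6% on chromosome 15 (34 of 88) and 39.2% on chromosome 12 (74 of 189). The Wilson interval held the genome-wide 31.2% on 22 of 23 chromosomes, the exception being chromosome 12 (32.5 to 46.3). The largest numbers were on chromosomes 11 (79), 1 (76), 12 (74), 10 (72) and 3 (71). As a share of all H3K4me2 peaks, the 922 regions went from 0.463% on chromosome 13 to 2.60% on chromosome 16, where wide peaks of every kind were frequent (8.10% of H3K4me2 peaks, against 2.01% on chromosome 13). No correction was made for copy number, and its part in these counts was not tested.

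Labelled H3K9me3 on the 922 regions varied over chromosomes. Its shares rest on fewer peaks per chromosome than the shares of wide peaks above, so the 2 spreads cannot be set side by side. The Wilson interval missed the genome-wide 27.3% on chromosomes 3, 5, 17 and 22 and held it on the others. Labelled H3K9me3 met 42.3% of the regions on chromosome 3 (30 of 71) and 42.1% on chromosome 17 (24 of 57), where acetylated wide peaks had 41.9 and 33.9%. On chromosome 5 it met 5 of 52 regions (9.62%, Wilson interval 4.18 to 20.6), against 52 of 102 acetylated wide peaks (51.0%), a difference of -41.4 points (counting interval -52.3 to -26.8). On chromosome 20 it met 6 of 34 (17.6%) against 39 of 78 (50%). Over all H3K4me2 peaks, chromosomes 3, 17, 5 and 20 were alike. Labelled H3K9me3 met 12.3% of them on chromosome 3, 12.8% on 17, 12.3% on 5 and 12.8% on 20, against 11.2% over all chromosomes. The share was lower in the 922 regions than in acetylated wide peaks on 16 of 23 chromosomes, and on 12 of the 17 with 20 or more regions. Chromosomes 5 and 20 were singled out after their values were seen. Without chromosome 5 the width-weighted difference over the genome was -5.70 points (-9.52 to -1.89).

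**Figure D4:**
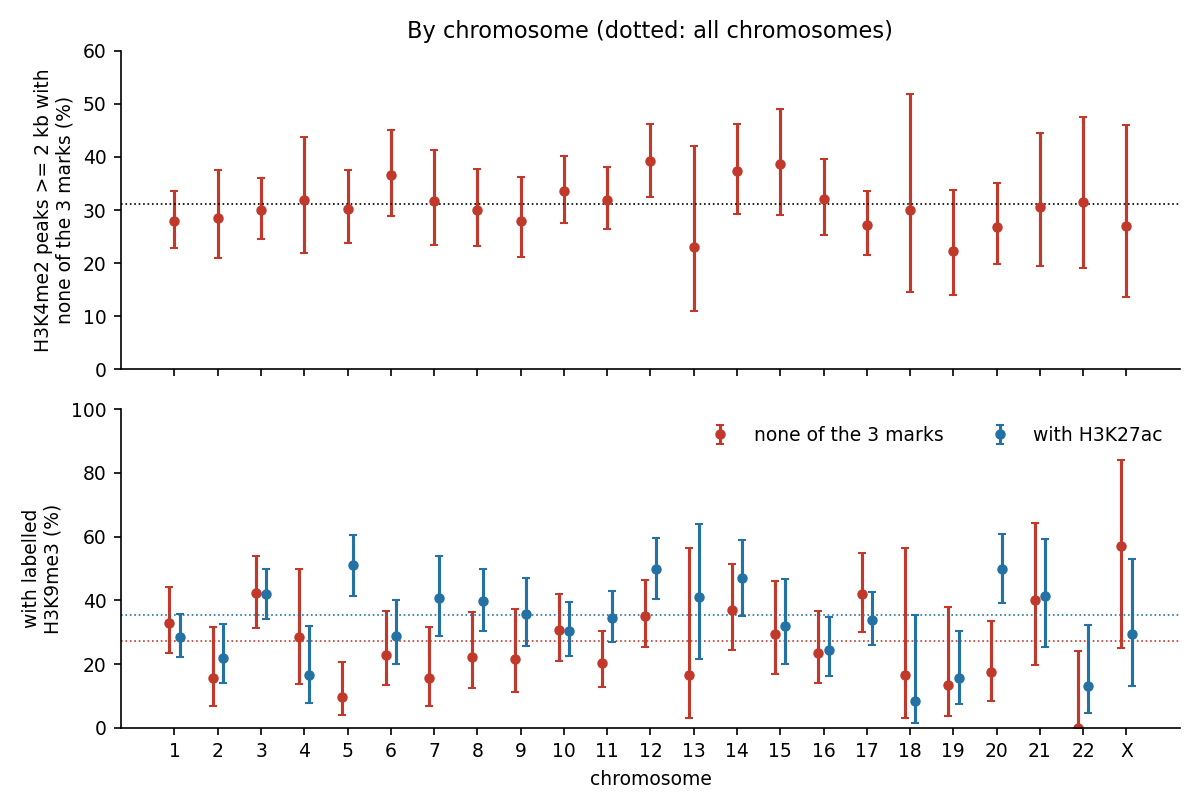
Upper panel, share of wide H3K4me2 peaks on each chromosome that carry none of the 3 marks (y axis, %, with 95% Wilson intervals). Lower panel, share of those regions and of acetylated wide peaks with labelled H3K9me3 (%), with dotted lines at the values over all chromosomes. The upper panel stays near 31.2%. In the lower panel, which rests on fewer peaks per point, the sets stand farthest apart among well-filled chromosomes on chromosome 5, at 9.62% and 51.0%.

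Cut into 1 Mb bins, the genome had 609 bins with at least 1 of the 922 regions, 418 of them with exactly 1 and 23 with 4 or more. Thus 418 regions (45.3%) were alone in their bin and 504 (54.7%) shared it with another. The fullest bin was on chromosome 16 (85000001 to 86000000), with 12 regions between 85061856 and 85755809, among 26 wide H3K4me2 peaks, 9 of them acetylated without the other marks. H3K27ac lay within 5 kb of 7 of these 12 regions, and 1 held labelled H3K9me3. The next bin, on chromosome 9 (130000001 to 131000000), held 7 regions among 13 wide peaks, 2 of them with labelled H3K9me3. Bins on chromosomes 10 (79000001 to 80000000), 11 (130000001 to 131000000) and 14 (105000001 to 106000000) held 6 regions each, among 14, 7 and 14 wide peaks. H3K27ac lay within 5 kb of 3, 0 and 4 of these regions, and labelled H3K9me3 lay on 0, 0 and 3 of them.

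Regions remote from the other marks were a smaller share of the 922 than of the narrower peaks. None of H3K27ac, H3K36me3 and H3K27me3 lay within 5 kb of 398 regions (43.2%), against 58.6% of the narrower peaks. For 67 regions (7.27%) all 3 were more than 50 kb away, against 13.8%. Of these 67, 12 held labelled H3K9me3 (17.9%), against 7.76% of the remote narrower peaks, which are also shorter. In 29 regions (3.15%) all 5 other lists were more than 50 kb away, against 7.76%.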

How the data were processed

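ChIP-seq peak lists of 6 marks in T-47D were analysed, 1 library and 1 list per mark. The submitters' processing notes name Bowtie2 2.1.0, HOMER 4.2 and the hg19 (GRCh37) build. What each tool did, how peaks were called, whether the input was used and how deep each library was is not given in the sources used here. All deposited lists have 4 columns with no score, so signal too weak to be called is not seen. Starts were converted to 1-based. Overlap meant at least 1 shared bp, and distances run from edge to edge. Shares have 95% Wilson intervals, differences of shares Newcombe intervals or, when weighted to the widths of the 922 regions (2 to 2.5, 2.5 to 3, 3 to 4 and 4 kb or more), normal intervals, and medians exact binomial intervals. All of them cover counting error only. No test over samples was possible. A count of 0 was taken to allow 3 counts.

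The regions named are the 10 widest, the 3 widest with labelled H3K9me3, the 3 nearest to and the 3 farthest from H3K27ac, and the 3 widest acetylated peaks, plus bins and chromosomes named for their counts. The regions and comparisons were chosen with earlier results of these data known. Genes, gene lists and sequences were not analysed, since an hg19 annotation or genome was not used here. Overlap and distance code was tested on simulated data. Python 3.11.15, numpy 2.4.6, pandas 2.3.3, scipy 1.17.1 and matplotlib 3.10.9 were used.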

Additional observations from a re-analysis of the deposited data

How the results depend on the processing

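The labelled H3K9me3 share stayed lower in the 922 regions than in acetylated wide peaks in every alternative run, from -5.70 points without chromosome 5 to -13.5 points with H3K4me2 peaks merged within 1 kb. From 3000 bp the difference was -6.27 points and its interval (-13.5 to 1.004) included 0. With wide peaks taken from 1500 bp there were 2138 regions, which were 37.2% of wide peaks, with labelled H3K9me3 on 23.3% and median distances of 11.2 kb to H3K27ac and 31.2 kb to H3K36me3. From 3000 bp there were 230 regions (25.2%), with 30.9%, 5.21 kb to H3K27ac and 178 kb to H3K27me3. Merging within 1 kb gave 1756 regions, 22.6% and 11.1 kb to H3K27ac. Requiring 50% of the shorter peak to be shared gave 36.5% of wide peaks, 5.56 kb to H3K27ac and 19.7 kb to H3K36me3. A gap of at least 1 kb from the 3 marks gave 24.6% of wide peaks, 11.9 kb and 35 kb. With peaks of the other lists wider than their median, the regions were 44.9% of wide peaks, at 19.9 kb from H3K27ac, 38.4 kb from H3K36me3 and 223 kb from H3K27me3, and labelled H3K9me3 lay on 19.1% of them and on 25.4% of acetylated peaks. Without the widest 1% of H3K4me2 peaks the regions were 32.9% of wide peaks. From the centre of the peak, an alternative added after seeing the data, as was leaving out chromosome 5, the median distance to H3K27ac was 9.70 kb. Within 50 kb the median number of other H3K4me2 peaks was 6. Each of these alternatives counts other regions, peaks or distances by its construction. Marks at gene starts were not run. No paired analysis was possible because each mark had 1 library. Without depth or peak heights, absence of a peak is no measure of absence of the mark.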

Other observations

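Outside chromosomes 1 to 22 and X there were 174 further H3K4me2 peaks. Of these, 32 were 2000 bp or wider, 0 of them on chromosome Y, and 1 overlapped none of H3K27ac, H3K36me3 and H3K27me3. Of the 922 regions on the other chromosomes, 8 overlapped another peak of the H3K4me2 list.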
